A study of Mus musculus with 20 samples.

Results

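Kiss1, Tac1, Tac2, Tacr1 and Tacr3, the genes of kisspeptin, of the tachykinin peptides and of 2 tachykinin receptors, were followed through 20 RNA libraries of the mouse preoptic area. They are 5 of the 19269 genes of the deposited count table and were picked by symbol, with earlier results of these data already known. The symbols could be found in all 20 libraries, and all 5 genes passed the low-count filter in each of the 11 comparisons. The question put to them was how their RNA differed between adult and day 21 mice, and whether the difference was seen in pools of both origins and in both RNA fractions.

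Kisspeptin, cut from the Kiss1 precursor, acts on its receptor Kiss1r on neurons that make gonadotropin-releasing hormone (GnRH) and makes them fire, which drives the pituitary and through it the ovary. In rodents the Kiss1 neurons lie in the rostral periventricular part of the preoptic region, where oestradiol raises Kiss1 and where the preovulatory surge is set off, and in the arcuate nucleus, where oestradiol lowers it. Arcuate Kiss1 neurons also make neurokinin B, the product of Tac2, and dynorphin, the product of Pdyn, and signal to each other through the neurokinin B receptor Tacr3. Tac1 encodes substance P and neurokinin A, and Tacr1 is the receptor that prefers substance P; in the forebrain Tac1 is also abundant in striatal neurons that carry the D1 dopamine receptor.

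Punches of the preoptic area were taken from female mice at days 70 to 150 in diestrus (adult) or at day 21 (young), and each pool combined 3 to 4 animals. Lysates were split by immunoprecipitation of GFP into an immunoprecipitate (IP) and the depleted supernatant; the tag sits on the ribosomal protein L10a and is switched on by GnRH CRE, so that it marks the ribosomes of GnRH neurons. Of the 6 new pools, the adult ones were a GFP-positive pool (GnRH CRE x Floxed L10a-GFP) and 2 untagged pools (GnRH CRE only), and the young ones were untagged pools 1 and 2 (Wild Type) and 3 (Floxed L10a-GFP only), each with an IP and a supernatant library. The other 4 pools, adult 3 and 4 and young 1 and 2, came from an earlier series, were all GnRH CRE x Floxed L10a-GFP, and were present as supernatant only, in a second set of libraries made with the new pools and in a first set that belongs to the earlier series. No genotype of the new pools occurs at both ages, so age and genotype cannot be told apart among them, untagged pools included. The 10-pool comparison below includes these pools, and only the earlier-series pools have 1 genotype at both ages. The GFP-positive pool has no replicate, and the labels used here do not say whether the earlier mice had been treated before birth.

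The libraries held 27745296 to 50517581 counts, so that 3 counts amounted to 0.0594 to 0.108 CPM, the usual per-million read level. Levels below are in CPM scaled by the trimmed mean of M-values (TMM). Counts per library ran from 22 to 938 for Kiss1, 1788 to 8687 for Tac1, 160 to 854 for Tac2, 226 to 1983 for Tacr1 and 150 to 1344 for Tacr3. All 17 preoptic marker genes listed were present, with a summed level of 486 to 702 CPM in adult and 510 to 682 CPM in young supernatants. Arcuate markers summed to 29.4 to 36.4 CPM in adult and 31.1 to 44.6 CPM in young supernatants, with 0 to 2 of 10 at 0 counts in either, and 2 or 3 of 5 pituitary hormone genes stood at 0 counts in every supernatant.

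The coding stretches for the carboxy-terminal ends of the peptides are shown because that end is what the tachykinins have in common. Each is the 30 bases of the coding sequence (GENCODE M21, GRCm38) that end with the last codon of the mature peptide before its amidation signal, written 5′ to 3′; the capitals mark the last 15 bases, the codons of the 5 carboxy-terminal residues. Substance P and neurokinin A both come from Tac1.
Kiss1, kisspeptin: tacaactggaactccTTCGGCCTGCGCTAC
Tac1, substance P: cccaagcctcagcagTTCTTTGGATTAATG
Tac1, neurokinin A: cataaaacagattccTTTGTTGGACTAATG
Tac2, neurokinin B: gacatgcacgacttcTTTGTGGGACTTATG
Neurokinin A of Tac1 and neurokinin B of Tac2 were identical at 19 of the 30 bases and at 13 of the 15 in capitals. Both peptides of Tac1 shared 17 bases, 12 of them in capitals. Kisspeptin shared 7 to 11 bases with the tachykinins, 3 or 4 of them in capitals. In the longest open reading frames the precursors were 152 (Kiss1), 130 (Tac1) and 116 (Tac2) residues long.

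On GRCm38, the assembly also called mm10, all 5 genes lie on the plus strand. Kiss1 spans chromosome 1 from 133321875 to 133329901, Tac1 chromosome 6 from 7554879 to 7565834 and Tac2 chromosome 10 from 127724478 to 127731768. Tacr1 spans chromosome 6 from 82402334 to 82560104 and Tacr3 chromosome 3 from 134829007 to 134934579. The Kiss1 interval overlaps Golt1a and Gm28040 on the same strand, so reads of the shared parts could have been assigned to another gene or left uncounted. Gm28040 is not among the genes counted. Golt1a itself stood at no more than 0.25 CPM in any library and was too low to be tested.

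The promoters of Kiss1 and Tac1 are shown because these are the 2 genes whose RNA differed by age. They run from 250 bases before to 50 bases after the RefSeq start (GRCm38.p6); capitals mark CGTCA, the short cyclic AMP response motif, and GGTCA, the repeat unit of the oestrogen response element, on either strand (TGACG and TGACC on the other).
Kiss1, chr1:133326962-133327261, plus strand: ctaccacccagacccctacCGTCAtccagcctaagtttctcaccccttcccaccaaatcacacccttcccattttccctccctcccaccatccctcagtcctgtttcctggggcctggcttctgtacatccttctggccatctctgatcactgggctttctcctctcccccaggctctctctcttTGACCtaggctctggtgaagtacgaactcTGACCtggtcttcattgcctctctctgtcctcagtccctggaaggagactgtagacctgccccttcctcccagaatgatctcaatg
Tac1, chr6:7554811-7555110, plus strand: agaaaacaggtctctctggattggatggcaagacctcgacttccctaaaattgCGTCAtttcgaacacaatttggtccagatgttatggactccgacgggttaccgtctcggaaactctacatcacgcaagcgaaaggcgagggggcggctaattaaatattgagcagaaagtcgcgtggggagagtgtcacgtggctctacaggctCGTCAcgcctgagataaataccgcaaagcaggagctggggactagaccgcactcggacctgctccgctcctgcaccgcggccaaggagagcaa
The Kiss1 window held CGTCA 1 time and GGTCA 2 times, and the Tac1 window held CGTCA 2 times, GGTCA 0 times and the GC box GGGCGG 1 time. Among 32851 mouse promoter windows of the same length, 20.8% held CGTCA, 40.5% held GGTCA and 35.7% held GGGCGG. The Tacr1 and Tacr3 windows each held CGTCA 1 time, and the Tac2 window held none of the motifs. The RefSeq start of Kiss1 lies inside the longer interval that GENCODE gives the gene. These matches describe letters in the window and were not related to the read counts.

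Adult supernatants held more Kiss1 and Tac1 RNA than young ones. Kiss1 was 3.81-fold higher in 5 adult than in 5 young pools (log2 1.93, SE 0.35) and Tac1 1.60-fold higher (log2 0.67, SE 0.15), while Tac2, Tacr1 and Tacr3 did not pass the test. In this fit, which held 1 second-set library per pool with age and pool origin as terms, 1517 of 15537 genes passed a Benjamini-Hochberg adjusted p of 0.05 in edgeR's quasi-likelihood test, 9.76% of those tested (4.16% higher and 5.60% lower in adults), against 2 of the 5 members. In bulk tissue, more RNA per cell and more cells of a type cannot be told apart. The new pools in this fit also differ in genotype between the ages.

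Kiss1 stood at 10.2 and 12.7 CPM in the untagged adult pools, 16.7 CPM in the GFP-positive adult pool and 20.5 and 29.2 CPM in the adult pools of the earlier series. In young pools it stood at 7.34, 5.36 and 2.50 CPM in untagged pools 1, 2 and 3 and at 2.11 and 5.22 CPM in the earlier-series pools 1 and 2. Every adult pool was above every young pool. The means were 17.9 ± 7.43 CPM in adult and 4.51 ± 2.18 CPM in young pools (SD, n = 5 each; edgeR adjusted p = 0.0047). The 95% interval of the log2 difference ran from 1.18 to 2.68.

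Tac1 stood at 171 and 169.8 CPM in the untagged adult pools, 144 CPM in the GFP-positive adult pool and 169 and 156 CPM in the adult earlier-series pools. The young pools held 65.0, 122 and 108 CPM in untagged pools 1, 2 and 3 and 87.1 and 123 CPM in the earlier-series pools. Again the ages did not overlap, and the adult pools lay close together. They averaged 162 ± 11.8 CPM, against 101 ± 24.9 CPM in young pools (SD, n = 5 each; edgeR adjusted p = 0.0136, 95% interval of the log2 difference 0.35 to 0.99). Across all genes with a count, 2.24% had every adult pool above every young one and 3.08% every adult pool below.

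**Figure D1:**
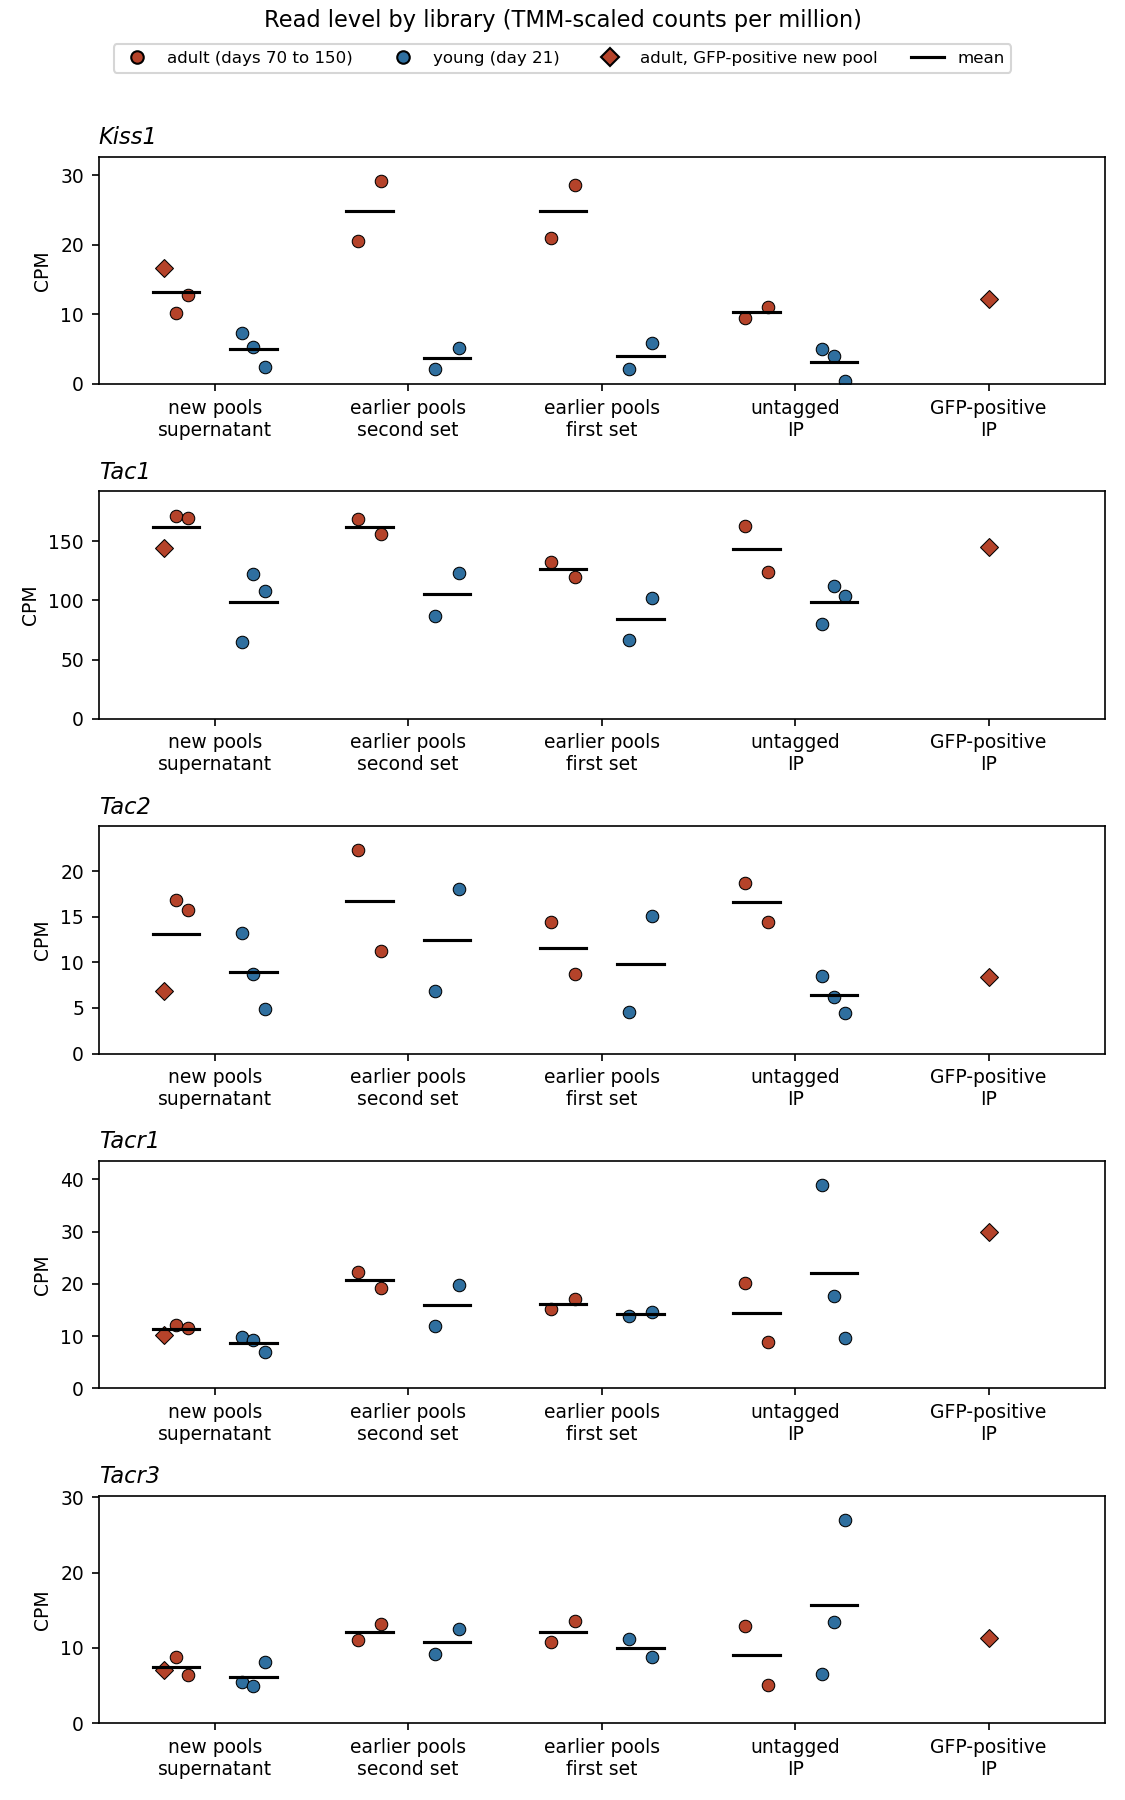
Read level of each member in every library, in TMM-scaled CPM (y axis), by library group (x axis); red points are adult, blue points young, diamonds the GFP-positive new pool, and bars the mean of a group. In the supernatants of the 10-pool comparison the adult points of Kiss1 (10.2 to 29.2 CPM) and Tac1 (144 to 171 CPM) lie above all young ones, while those of Tac2, Tacr1 and Tacr3 overlap.

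Tac2 stood at 16.9 and 15.7 CPM in the untagged adult pools, 6.91 CPM in the GFP-positive one and 22.3 and 11.2 CPM in the earlier-series adults. The young pools held 13.2, 8.69 and 4.88 CPM in the untagged pools and 6.85 and 18.0 CPM in the earlier-series pools. The ages overlapped: the GFP-positive adult pool was below 3 of the 5 young pools, and young earlier-series pool 2 was above all adult pools but 1. The log2 difference was 0.51 (SE 0.33, 95% interval -0.20 to 1.22, edgeR adjusted p = 0.370).

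Tacr1 ranged from 10.3 to 22.3 CPM with a median of 12.2 CPM in adult pools and from 6.89 to 19.8 CPM with a median of 9.74 CPM in young pools. Its log2 difference of 0.39 (SE 0.15, 95% interval 0.07 to 0.71) gave an edgeR adjusted p of 0.123. Without young earlier-series pool 2, which had the highest young level, the difference was 0.52 and passed (edgeR adjusted p = 0.0387). Tacr3 ranged from 6.34 to 13.2 CPM with a median of 8.84 CPM in adult pools and from 4.91 to 12.5 CPM with a median of 8.08 CPM in young pools (log2 0.22, SE 0.17, edgeR adjusted p = 0.468). For both receptors the earlier-series pools lay above every new pool of the same age. How many of all genes do so was not counted, so this is not read as a trait of the receptors.

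The calls for Kiss1 and Tac1 did not rest on 1 pool. Without each of the 10 pools in turn, Kiss1 kept an adjusted p between 0.00248 and 0.0151 and Tac1 one between 0.00811 and 0.044 in edgeR. Fits of the new pools alone (Kiss1 log2 1.40, edgeR adjusted p = 0.0578, and Tac1 log2 0.72, adjusted p = 0.0810) and of the earlier-series pools alone (Kiss1 log2 2.76, adjusted p = 0.100, and Tac1 log2 0.62, adjusted p = 0.279) kept the direction and did not pass.

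The next comparison asked whether the difference held in both origins, which share no pool. It used the same 10 libraries with a mean for each age and origin, so it shares its data with the 10-pool result. In the earlier-series pools Kiss1 was 6.77-fold higher in adults (log2 2.76, SE 0.48, edgeR adjusted p = 0.0393), 1 of 58 genes that passed among 16206 tested, 0.358%. In the new pools it was 2.62-fold higher (log2 1.39, SE 0.37) with an adjusted p of 0.0618 in edgeR, where 593 genes, 3.66%, passed and no member did. The lowest adult level was above the highest young one in each origin: 20.5 against 5.22 CPM in the earlier-series pools and 10.2 against 7.34 CPM in the new ones. Of all genes with a count, 21.3% in the earlier-series pools and 10.7% in the new pools had every adult pool above every young one.

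Within an origin the call for Kiss1 depended on single pools and, in the new pools, on the tool. The earlier-series call held in 5 of 5 other settings, DESeq2 and limma voom included (adjusted p from 1.4e-07 to 0.0395), and was lost without any one of 7 pools, which were both adult earlier-series pools, young earlier-series pool 1, both untagged adult pools, young untagged pool 2 and the GFP-positive pool (edgeR adjusted p from 0.0513 to 0.344), with a log2 difference of 2.25 to 2.97 in these 7 fits. Without young earlier-series pool 2 the difference was 3.54. In the new pools Kiss1 passed under DESeq2 (adjusted p = 0.00267), under limma voom (0.0440), without a low-count filter (0.0443) and without either young earlier-series pool (0.0340 and 0.0345). Tested directly, the age difference of Kiss1 was estimated as larger in the earlier-series pools by log2 1.37 (SE 0.59, 95% interval 0.10 to 2.65). This did not pass, with an unadjusted p of 0.0370 and an adjusted p of 0.999 in edgeR's model across genes. The estimate ran from 0.86 without young earlier-series pool 1 to 2.15 without young earlier-series pool 2. The new pools, the GFP-positive one apart, have other genotypes than the earlier-series pools, so origin and genotype cannot be told apart. In that test 1 of 16206 genes passed, 0.00617%, which was the predicted gene Gm5779 and was named after its value was seen.

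For Tac1 the log2 difference was 0.71 in the new pools (SE 0.20, edgeR adjusted p = 0.0656) and 0.62 in the earlier-series pools (SE 0.24, edgeR adjusted p = 0.342), and the difference between the origins was -0.09 (95% interval -0.76 to 0.58). Adult and young pools did not overlap in either, as for the 21.3% and 10.7% of all genes with every adult pool higher in the earlier-series and the new pools. Tac1 passed in the new pools under DESeq2 (adjusted p = 0.00589), limma voom (0.0470) and with no filter (0.0478), and in the earlier-series pools under none of the settings tried.

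Tac2, Tacr1 and Tacr3 were higher in adults in both origins without passing. Tac2 had log2 differences of 0.57 (SE 0.44) in new and 0.43 (SE 0.53) in earlier-series pools, Tacr1 0.40 (SE 0.20) and 0.38 (SE 0.24), and Tacr3 0.27 (SE 0.23) and 0.16 (SE 0.28). In the earlier-series pools the sign of Tac2 turned without adult pool 3 (-0.17) or young pool 1 (-0.10), and it was 1.28 without young pool 2. All adult new pools were above all young new pools for Tacr1, at 10.3 to 12.2 against 6.89 to 9.74 CPM, as they were for 10.7% of all genes.

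**Figure D2:**
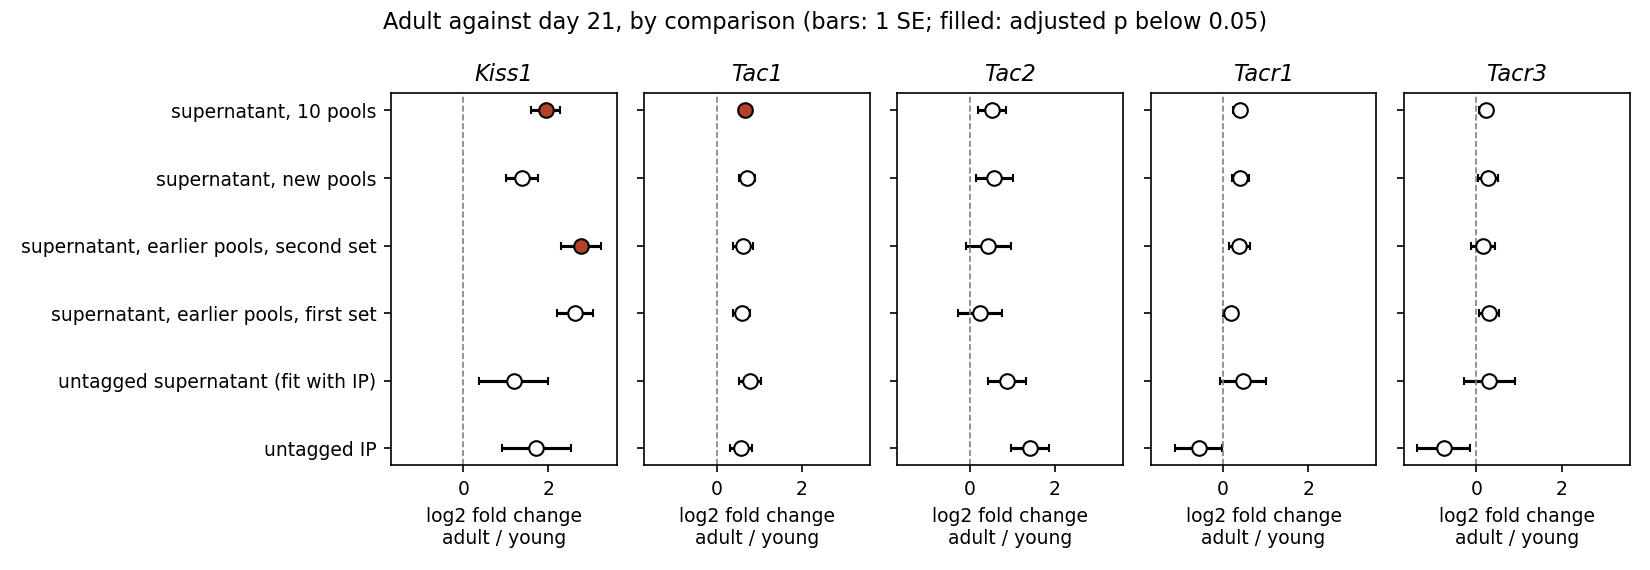
Log2 fold change of adult over young (x axis) for each member in 6 comparisons (y axis), with bars of 1 SE; filled points passed an adjusted p of 0.05. Kiss1 is filled for the 10 pools (1.93) and the earlier-series pools (2.76), Tac1 for the 10 pools (0.67), and Tacr1 and Tacr3 lie below 0 in the untagged IP (-0.58 and -0.77).

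The first-set libraries repeat the 4 earlier-series pools and are not further animals. There Kiss1 stood at 21.0 and 28.6 CPM in adult pools 3 and 4, against 2.20 and 5.81 CPM in young pools 1 and 2. Its log2 difference was 2.63 (SE 0.42), with an edgeR adjusted p of 0.0958 where 28 of 15698 genes, 0.178%, passed. Tac1 stood at 133 and 119 CPM in adult and 66.5 and 102 CPM in young pools (log2 0.59, SE 0.19, edgeR adjusted p = 0.315). Tac2, Tacr1 and Tacr3 differed by log2 0.24 (SE 0.51), 0.18 (SE 0.18) and 0.28 (SE 0.24).

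The same RNA read out differently in the 2 sets for some of the genes. Tac1 was higher in the second set in 4 of 4 pools, by a factor of 1.20 to 1.31 (log2 0.34, SE 0.05, edgeR adjusted p = 8.49e-05). Tac2 was also higher in 4 of 4, by a factor of 1.19 to 1.54 (log2 0.45, SE 0.11, edgeR adjusted p = 0.00665). Kiss1 moved by a factor of 0.90 to 1.02 (log2 -0.06, SE 0.11), and Tacr1 (log2 0.23, SE 0.12) and Tacr3 (log2 0.04, SE 0.13) did not pass. Kiss1r was lower in the second set in 4 of 4 pools (log2 -0.67, SE 0.12, edgeR adjusted p = 0.000712). Differences between sets were common, with 5042 of 15573 genes passing, 32.4%; these p-values refer to repeats of the same RNA. Both ages were in each set, and the 10-pool fit used the second set alone; with the first-set libraries put in place of the second-set ones, Kiss1 and Tac1 still passed.

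The untagged pools show whether the age difference was also found in the IP. Without the tag this fraction is what the beads hold nonspecifically. Kiss1 stood at 9.50 and 11.1 CPM in the adult IP and at 5.08, 4.03 and 0.44 CPM in the young IP of pools 1, 2 and 3. Both adult libraries were above all 3 young ones, as for 11.9% of all genes, and young pool 3, the lowest, rested on 22 reads. The log2 difference was 1.71 (SE 0.81, 95% interval -0.08 to 3.50, edgeR adjusted p = 0.302), against 1.18 (SE 0.81) in the supernatants of the same pools in the same fit.

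Tac1 stood at 163 and 124 CPM in the adult IP and 79.7, 112 and 104 CPM in the young IP. Tac2 stood at 18.7 and 14.4 CPM in the adult IP and 8.49, 6.22 and 4.39 CPM in the young IP. In neither case did the ages overlap, as for 11.9% of all genes with every adult IP library higher. The log2 differences were 0.57 for Tac1 (SE 0.26, edgeR adjusted p = 0.282) and 1.40 for Tac2 (SE 0.44, edgeR adjusted p = 0.151). In the supernatants of these pools they were 0.79 (SE 0.26, adjusted p = 0.620) and 0.87 (SE 0.44).

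The receptors had lower mean levels in the adult IP, within a wide spread. Tacr1 stood at 20.1 and 8.85 CPM in the adult IP and at 38.9, 17.7 and 9.67 CPM in the young IP (log2 -0.58, SE 0.55). Tacr3 stood at 12.9 and 5.12 CPM in the adult IP and at 6.53, 13.5 and 27.0 CPM in the young IP (log2 -0.77, SE 0.61). The ages overlapped for both, different young pools were highest for each, and both differences moved with single libraries. That of Tacr1 was 0.10 without young IP 1 and -1.31 without adult IP 1. That of Tacr3 was -0.14 without young IP 3 and -1.60 without adult IP 1.

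No member passed in either fraction of the untagged pools. In the IP 119 of 16361 genes passed, 0.727%, and in the supernatant 8 genes, 0.0489%, with only 2 adult pools in each. On counts simulated for the same libraries, the IP comparison found 37.1% of genes changed by log2 1 and 60.2% of those changed by log2 2. There, unchanged genes had the same level in both fractions, and all genes took the spread typical of their read level rather than their own. These shares therefore do not give the chance of finding a single member. The age difference itself was not seen to differ between the fractions: the IP value minus the supernatant value was 0.53 for Kiss1 (SE 1.16), -0.22 for Tac1 (SE 0.37), 0.53 for Tac2 (SE 0.64), -1.04 for Tacr1 (SE 0.77) and -1.07 for Tacr3 (SE 0.85). All 5 had an adjusted p of at least 0.888 in edgeR. None of the 16361 genes passed that test (0%), 1068 had an unadjusted p under 0.05, DESeq2 called 118 and limma voom 0, and the intervals, from -2.04 to 3.09 for Kiss1, include large differences in either direction.

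Between the fractions of the untagged pools, the peptide genes were lower and the receptors higher in the IP of most pools, and none of these differences passed. Kiss1 was lower in the IP of 5 of 5 pools, at 0.93 and 0.87 of the supernatant in adult pools 1 and 2 and 0.69, 0.75 and 0.18 in young pools 1, 2 and 3 (log2 -0.44, SE 0.58). Pools were matched by the titles; the descriptions number the 2 untagged adult supernatants 2 and 3, and under that numbering adult IP 2 at 11.1 CPM would stand beside the supernatant with 10.2 CPM. Tac1 and Tac2 were each lower in 4 of 5 pools (log2 -0.16, SE 0.18, and -0.26, SE 0.32). Tacr1 was higher in 4 of 5 pools (log2 0.80, SE 0.38, edgeR adjusted p = 0.148) and so was Tacr3 (log2 0.77, SE 0.43, edgeR adjusted p = 0.215), the exception being adult pool 2 for both. None of the 5 members passed, while 5246 of 16361 genes did, 32.1%. For all 5 members the levels of the fractions overlapped across the untagged pools. How many of all genes are higher or lower in 4 or 5 of 5 pools was not counted. No contrast of peptide and receptor genes is therefore read from these counts. Tacr1 passed when young IP 3 was left out (log2 0.98, edgeR adjusted p = 0.0380).

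**Figure D3:**
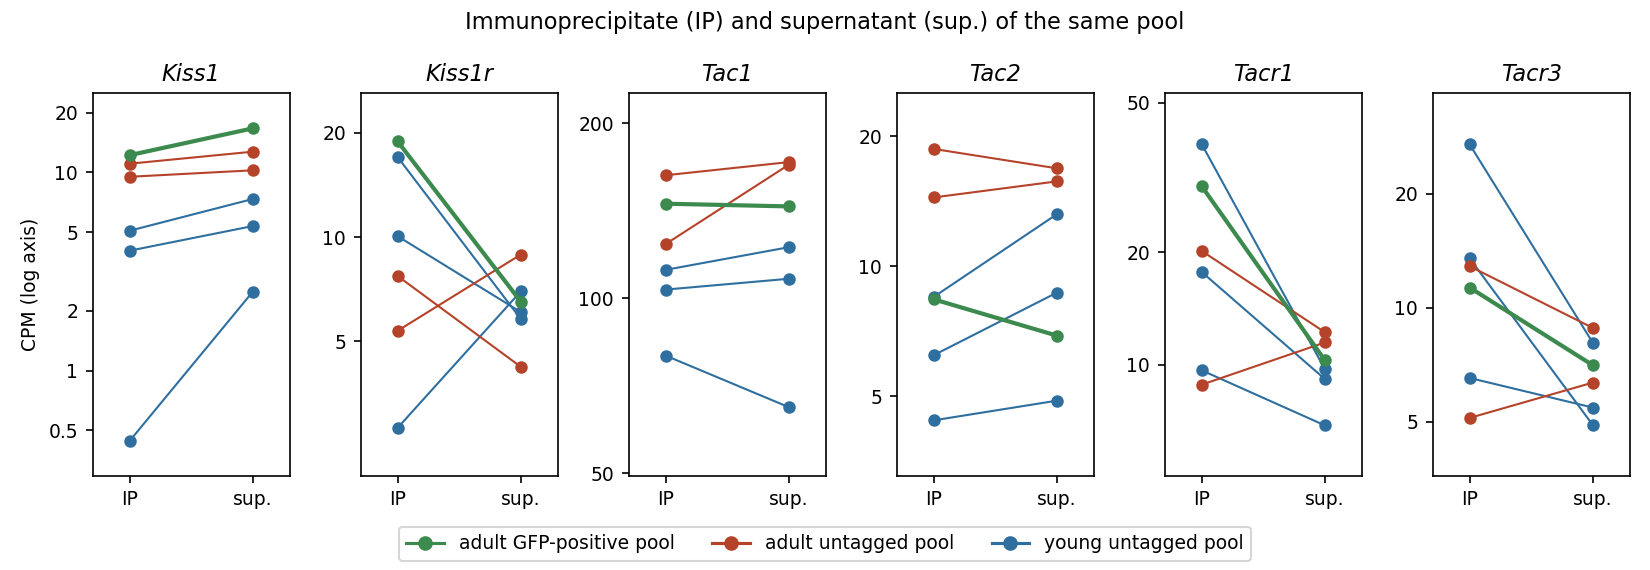
CPM on a log axis (y axis) in the IP and the supernatant (x axis) of the same pool, joined by a line, for Kiss1, Kiss1r and the 4 tachykinin genes; red is untagged adult, blue untagged young and green the GFP-positive adult pool. Kiss1 lines rise to the right in all 5 untagged pools, while Tacr1 and Tacr3 lines fall in 4 of 5.

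The GFP-positive IP is the 1 library enriched for GnRH neurons. Gnrh1 marked it at 1457 CPM, against 27.3 CPM in its own supernatant and 33.5 and 16.2 CPM in the untagged adult IP; it was the 1 gene of 16586 (0.00603%) that passed against the untagged adult IP (log2 5.91, SE 0.44, edgeR adjusted p = 0.0214), and 0 genes passed without any one of 4 of the 5 untagged IP libraries. Kiss1r, the receptor through which kisspeptin reaches these neurons, measured 18.9 CPM there, 6.51 CPM in the supernatant of that pool and 5.36 and 7.72 CPM in the untagged adult IP, but the untagged young IP reached 17.0 CPM in pool 3 (log2 1.57 against the untagged adult IP, SE 1.00, edgeR adjusted p = 0.938). Tacr1 stood at 30.0 CPM, against 10.3 CPM in the supernatant and 20.1 and 8.85 CPM in the untagged adult IP, with 38.9 CPM in young IP 1 (log2 1.09, SE 0.82). Tacr3 stood at 11.3 CPM (log2 0.37, SE 0.95), Kiss1 at 12.2 CPM (log2 0.29, SE 1.34), Tac1 at 145 CPM (log2 0.06, SE 0.31) and Tac2 at 8.38 CPM (log2 -0.94, SE 0.80). No member passed. Every member's level in this library lay within the range of the 5 untagged IP libraries of both ages, apart from Kiss1. Its 12.2 CPM was above their highest value of 11.1 CPM. Against the untagged adult IP alone, Kiss1 and Tacr1 were above both libraries. Tac2, at 18.7 and 14.4 CPM there, was below both. How many of all genes lie outside these ranges was not counted.

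Set against transcript length, the genes fell into 3 tiers within each second-set supernatant library. Tac1 came first, at 132 ± 9.59 CPM per kb of its longest transcript in adult and 82.2 ± 20.3 in young pools (SD, n = 5 each). Kiss1 followed at 22.9 ± 9.54 in adult and 5.79 ± 2.80 in young pools, and Tac2 at 17.1 ± 6.84 in adult and 12.1 ± 6.21 in young pools. The receptors were lowest, with Tacr1 at 3.01 ± 1.06 in adult and 2.29 ± 0.99 in young pools, Tacr3 at 2.48 ± 0.76 in adult and 2.13 ± 0.81 in young pools, and Kiss1r at 2.10 ± 0.59 in adult and 2.10 ± 0.24 in young pools.

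The tiers did not mix within any of the 10 pools: Tac1 was above Kiss1 and Tac2, and both were above all 3 receptors, in 5 of 5 adult and 5 of 5 young pools. Between young pools they did overlap, with Kiss1 in earlier-series pool 1 below Tacr1 in earlier-series pool 2. Within the middle tier the order varied between pools. Kiss1 was above Tac2 per kb in 3 of 5 adult and 0 of 5 young pools, although the ranges of the 2 genes overlapped at either age. In adult earlier-series pool 3, at 20.5 CPM for Kiss1 and 22.3 CPM for Tac2, that order depended on the length used. With the median transcript lengths, 637.5 nt for Kiss1 and 596 nt for Tac2, Tac2 was above Kiss1 in that pool. The receptors were not separated beyond the spread between pools; Tacr1 was above Tacr3 in 5 of 5 adult and 3 of 5 young pools. These levels take reads as spread along the longest annotated transcript, of 779 nt for Kiss1, 1230 nt for Tac1, 852 nt for Tac2, 5021 nt for Tacr1 and 3762 nt for Tacr3.

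**Figure D4:**
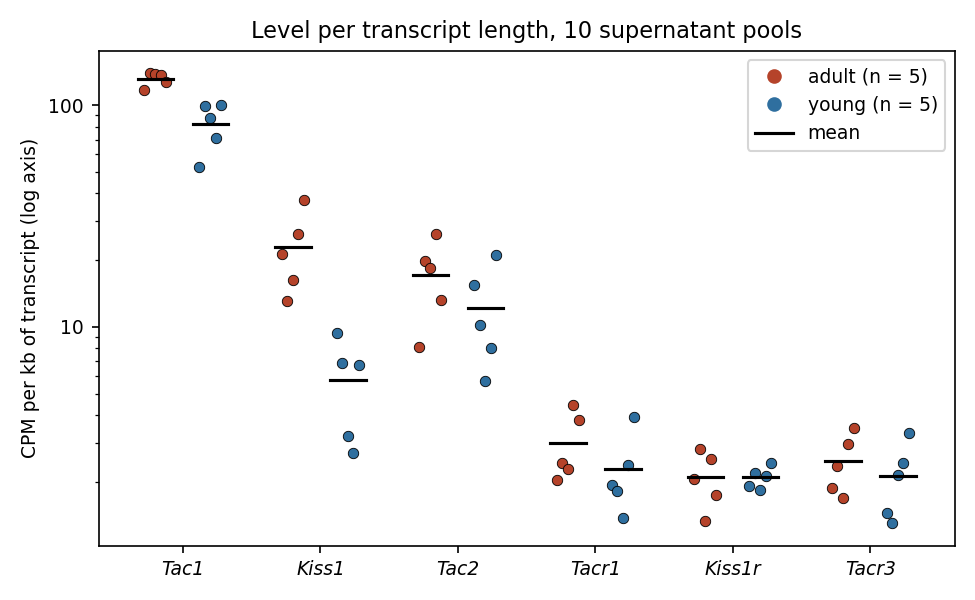
CPM per kb of the longest transcript (log y axis) of the 5 members and Kiss1r (x axis) in the 10 supernatant pools, adult in red and young in blue, with bars at the mean. By the means, Tac1 lies highest at 132 in adult and 82.2 in young pools, Kiss1 and Tac2 in the middle, and the receptors lowest at about 2 to 3.

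Other genes of the same signalling were read from the 10-pool fit. Of 26 listed partners 21 were tested; 2 were higher in adults, 1 lower and 18 did not pass, with a median log2 difference of 0.06 against 0.00 over all genes. The higher ones were Pdyn, the dynorphin precursor (13.5 ± 1.98 CPM in adult and 7.58 ± 2.25 CPM in young pools, log2 0.83, SE 0.19, edgeR adjusted p = 0.0148), and Itpr1, an inositol trisphosphate receptor downstream of Gq-coupled receptors (log2 0.64). Rgs4, which shortens G protein signals, was lower (log2 -0.45). Kiss1r was level between the ages, at 6.64 ± 1.88 CPM in adult and 6.65 ± 0.74 CPM in young pools (SD, n = 5 each), with a 95% interval of the log2 difference from -0.43 to 0.43. The dynorphin receptor gene Oprk1 (log2 0.28, edgeR adjusted p = 0.427) and Gnrh1 (log2 0.58, SE 0.20, edgeR adjusted p = 0.0854) did not pass, and Tac4 and Tacr2, the remaining tachykinin precursor and receptor, were too low to be tested.

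Of 12 steroid and thyroid hormone receptor and related genes, 2 were higher in adults and 0 lower (median 0.16), among them Thrb, a thyroid hormone receptor (log2 0.49, SE 0.09). Esr1, the oestrogen receptor through which oestradiol acts on Kiss1, differed by log2 0.12 and Pgr, the progesterone receptor, by 0.07, and neither passed. Of 18 tested genes linked to puberty timing or Kiss1 transcription, Cbx7, a Polycomb protein gene, was higher (86.0 ± 13.3 CPM in adult and 38.0 ± 6.44 CPM in young pools, log2 1.17) and Mkrn3, whose loss in humans brings early puberty, was lower (2.64 ± 1.11 CPM in adult and 9.94 ± 3.59 CPM in young pools, log2 -1.92, SE 0.31, edgeR adjusted p = 0.0025), and 16 did not pass. Of 16 genes that cut, trim or store peptide precursors, 6 were higher and 1 lower (median 0.35). Ece2 (log2 0.62) and Ece1 (0.59) encode endothelin-converting enzymes, Scg5 (0.52) the chaperone of a prohormone convertase, and Prep, the one that was lower (-0.56), a prolyl peptidase.

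Genes listed for the places where these peptides are made moved with age in part. Of 13 genes listed for the rostral periventricular area 3 were higher in adults, Penk (log2 0.70), Cartpt (0.65) and Nts (0.53), with a median of 0.20. The list summed to 2066 to 2838 CPM in adult and 1732 to 2458 CPM in young pools. It includes Gad1, Gad2 and Slc32a1 and is not particular to that area, so its sum does not measure the area. Which cells of the punches held the Penk, Cartpt and Nts RNA was not tested. Of 8 tested arcuate markers 0 were higher and 1, Pomc, was lower (log2 -0.64, SE 0.18), while Kiss1 was higher. Their part in the Kiss1 difference was not tested. Of 10 striatal markers 1 was higher in adults, Drd1a, the D1 dopamine receptor (45.1 ± 6.36 CPM in adult and 27.4 ± 6.04 CPM in young pools, log2 0.71, SE 0.15, edgeR adjusted p = 0.0119), with a median of 0.30. All 10 striatal markers had counts in every supernatant, and they summed to 993 to 1292 CPM in adult and 693 to 1347 CPM in young pools; young untagged pool 1 had the lowest sum and the lowest Tac1. Their part in the Tac1 difference was not tested.

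Of the other cell lists in the same fit, oligodendrocyte genes were lower in adults for 3 of 8 (Mobp, Cnp and Mbp, median -0.59), neuronal genes were higher for 1 (Syt1) and lower for 3 of 10 (Stmn2, Nefm and Tubb3), and astrocyte and microglial genes were higher for 1 of 7 each (Slc1a3 for the astrocytes). No gene passed among the septal, cortical, magnocellular, endothelial, meningeal, ependymal or choroid plexus markers, and no pituitary hormone gene was high enough to be tested. The magnocellular sum ran from 208 to 565 CPM in adult and from 49.1 to 320.1 CPM in young pools; its part in the differences was not tested.

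By likeness of pattern over the 10 supernatant pools (Pearson correlation of log2 CPM across 12795 genes with at least 1 CPM on average), Kiss1 lay closest to Atg10 (0.957), Nrn1l (0.956) and Cartpt (0.944), and Tac1 to Tmem109 (0.970), Zfp174 (0.958) and Hexa (0.937). Tac2 lay closest to Tmem17 (0.947), Tacr1 to Slc7a14 (0.994) and Tacr3 to Vprbp (0.979). With age and origin removed, the nearest were Ccdc28a for Kiss1 (0.984), Zfp174 for Tac1 (0.977), Lmln for Tac2 (0.970), Gpr101 for Tacr1 (0.982) and C2cd3 for Tacr3 (0.986). Among the members themselves the closest pair by these residuals was Tac2 with Tacr1 (0.906), followed by Kiss1 with Tacr1 (0.559). These are the highest of many correlations over 10 points that share age and origin, and they are given as a description.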

How the data were processed

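Raw read counts per gene, as deposited, were used for 19269 gene symbols in 20 libraries. The submitters' processing notes name HTSeq 0.6.1, TopHat2 2.0.13 with Bowtie2 2.2.1, FastQC 0.11.3, Cuffdiff 2.1.1 with Cufflinks, DESeq2 1.14.1 and the mouse build mm10. What each tool did, which annotation was used and whether strand was counted is not given in the sources used here. Libraries of polyA RNA were made with a SMARTer ultra-low kit, per the labels' protocols. Amplified reads are not independent molecules, so detection floors cover counting error only.

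Groups followed the sample titles. The series text names the GFP-positive supernatant differently in 1 place, and the titles and genotypes were followed. Counts were tested with edgeR 4.0.16 (quasi-likelihood, TMM, filterByExpr with a minimum count of 10, Benjamini-Hochberg over all genes tested, threshold 0.05) in R 4.3.3. Residual degrees of freedom were 7 for the 10-pool fit, 6 for the fit by age and origin, 6 for the untagged libraries, 3 for the sequencing sets, 2 for the first set alone and 3 for the IP libraries, where 1 GFP-positive library is taken to spread as the untagged ones do. CPM values use TMM scaling over all 20 libraries. SE is the log2 fold change over the square root of the test statistic. Recovery on simulated counts with 200 changed genes was checked for 4 of the comparisons. No 2 libraries of the same group, or of the same pool in both sets, were identical or within sampling noise of each other.

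The IP and supernatant of an untagged pool carry the same number in the titles. Their deviations from the group means correlated at 0.153 to 0.398 for every pair (12724 genes). Young IP 2 had 0.153 with its own supernatant and 0.0906 with supernatant 1. With only 2 adult pools the deviations mirror each other, so both adult pairs give the same 0.162 and the exchanged pairs -0.162. For the adults this is a single sign and cannot settle the numbering, which the descriptions give otherwise. The fit with the pool as a block is among the alternatives.

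Lengths came from GENCODE M21 (GRCm38) for 98.5% of the genes, promoter windows from RefSeq for 5 of 5 members, and Drd1 was matched under its older symbol. Of 20 gene lists with 202 entries, all entries were in the table. From each list the text names at most 4 genes past the threshold, those with the largest change in the 10-pool comparison, together with Kiss1r, Tacr2, Tac4, Esr1, Pgr, Pdyn, Oprk1 and Gnrh1. Pattern neighbours are the 3 genes with the highest correlation, predicted genes left out. Genes that passed the rule but are not named are not reported here. The members and the lists were chosen with earlier results of these data known. Alternatives were RLE and upper-quartile scaling, no filter, DESeq2 1.42.0, limma 3.58.1 voom, other sets of libraries and leaving out each library.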

Additional observations from a re-analysis of the deposited data

How the results depend on the processing

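No result changed direction together with its call. The counts of genes passing moved by over 1.5 times as follows. With DESeq2 they came to 1364 in the new pools (593 in edgeR), 380 in the earlier-series pools (58), 9 for age by origin (1), 369 in the first set (28), 179 in the untagged supernatants (8), 1284 in the untagged IP (119), 118 for age by fraction (0) and 210 for the GFP-positive IP (1). With limma voom they were 0 for age by origin and 59 in the untagged IP. Without the low-count filter they were 88 in the earlier-series pools, 2 for age by origin and 88 in the first set. In the 10-pool comparison (1517) the count was 655 without a term for origin, 481 in the new pools alone and 11 in the earlier-series pools alone. With the label of the GFP-positive supernatant as the series text has it in 1 place, 1 gene passed in the untagged supernatants. A fit of the 5 untagged IP libraries alone gave 0 genes, and one of the 5 untagged supernatants alone, added after seeing the data, gave 256.

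Leaving out 1 library at a time, counts ran from 731 (without untagged adult supernatant 1) to 1723 in the 10 pools, 100 (the same library) to 910 (without young untagged supernatant 3) in the new pools, 3 (without adult earlier-series pool 3) to 253 (without young earlier-series pool 2) in the earlier-series pools, 1 to 9 (without the GFP-positive supernatant) for age by origin, 0 to 9 in the untagged supernatants, 0 (without any young untagged supernatant) to 458 (without adult IP 2) in the untagged IP, 0 to 67 (without adult IP 2) for age by fraction, and 0 to 1 for the GFP-positive IP. The causes were not tested.

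For single genes, Kiss1 and Tac1 in the 10-pool comparison passed under 18 of 20 alternatives each. The exceptions were the new pools alone (log2 1.40 for Kiss1 and 0.72 for Tac1) and the earlier-series pools alone (2.76 and 0.62), which hold fewer samples. Leaving out each pool moved Kiss1 from 1.64 to 2.20, Tac1 from 0.55 to 0.77 and Tacr1 from 0.29 to 0.52. In the untagged IP, Tac2 passed under DESeq2 (log2 1.39, adjusted p = 0.0486), as Kiss1 did in the first set (DESeq2 adjusted p = 8.86e-10, and 0.0185 in edgeR without the filter). With the replicate block, which pairs the IP and supernatant of a pool, 4970 genes passed between fractions (5246 without it) and 0 for age by fraction, and no call of a member changed. With median in place of longest transcript length, Tac1 came to 165 CPM per kb in adult and 103 in young pools and Tac2 to 24.5 in adult pools. Over all results and alternatives, 837 values kept their call or size, 71 moved, 13 gained a call and 11 lost one.

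Kiss1 had 22 to 938 reads per library, the fewest in young untagged IP 3, so its level there carries the largest counting error of any member.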
